A study of Mus musculus with 663 samples.

Results

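The follistatin, inhibin and activin system is described here through 8 genes, taken by name from the 43319 gene names of the deposited table: the ligand subunit genes Inha, Inhba and Inhbb, the antagonist genes Fst and Fstl3, and the receptor genes Acvr1b, Acvr2a and Acvr2b. All 8 were found. The cells came from gonads labelled XX of mice of mixed background that carried the NR5A1-eGFP genotype, a green fluorescent reporter of Nr5a1, which encodes a nuclear receptor of gonadal somatic cells. Cells positive for the reporter were sorted, so cells without the reporter were not sampled by design. The ages were E10.5, E11.5, E12.5, E13.5 and E16.5 (embryonic days) and P6 (postnatal day 6), with no treatment and no second genotype. After a repeat library was averaged with its first, 662 single cells remained, in 12 captures (runs of a microfluidic chip) of 40 to 71 cells. E10.5 had 1 capture, E12.5 had 3, and each remaining stage had 2.

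Inhibins and activins are secreted dimers of the TGF-beta superfamily. The alpha subunit encoded by Inha pairs with a beta subunit, encoded by Inhba or Inhbb, to form an inhibin, whereas 2 beta subunits form an activin. Activins bind the type 2 receptors encoded by Acvr2a and Acvr2b, which recruit the type 1 receptor encoded by Acvr1b, and the signal passes through SMAD proteins. Follistatin, the product of Fst, and the related product of Fstl3 bind activins and keep them from their receptors. In the ovary, Fst is known as a gene of the fetal supporting lineage, and granulosa cells of growing follicles are the known source of inhibin.

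The upstream sequences of the beta subunit genes are shown because both genes supply the partner of the alpha subunit, yet they differed in how many cells held them and at which stages. Each is the 250 bases before the RefSeq start on GRCm38.p6, read 5′ to 3′ on the strand of the gene, with capitals at motif matches. They cover chr13:16011601-16011850 on the plus strand for Inhba and chr1:119422249-119422498 on the minus strand for Inhbb, and each window ends at the base before the gene start in GENCODE vM21.
Inhba: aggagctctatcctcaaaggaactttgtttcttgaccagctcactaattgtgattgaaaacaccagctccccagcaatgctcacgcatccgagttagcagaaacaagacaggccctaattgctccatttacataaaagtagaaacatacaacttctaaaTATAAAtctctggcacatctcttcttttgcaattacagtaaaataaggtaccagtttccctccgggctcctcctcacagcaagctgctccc
Inhbb: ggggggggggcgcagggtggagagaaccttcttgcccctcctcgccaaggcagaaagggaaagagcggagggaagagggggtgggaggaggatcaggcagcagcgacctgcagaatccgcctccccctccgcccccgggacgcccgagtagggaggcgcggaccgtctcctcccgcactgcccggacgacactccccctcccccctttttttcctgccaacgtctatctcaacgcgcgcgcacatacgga
The Inhba window was 43.2% G and C and the Inhbb window 68%, against a median of 52.4% over 32851 such windows. The capitals in the Inhba sequence mark the only match found in either, to the TATA box letters TATAAA, 91 bases before the start. These letters were present in 12.4% of all windows on either strand. The other motifs searched on both strands, with the percent of all windows that hold them, were AAGGTCA (NR5A half-site, 4.08%), TGACGTCA (cAMP response element, 1.55%), TGCGTCA (a variant of it, 1.75%), TGTTTAC (forkhead motif, 3.17%) and CAGACA (SMAD motif, 17.1%). Windows were found for 7 of the 8 genes. The RefSeq start of Inha in the table lies 532 bases inside the GENCODE gene, so its window is not shown.

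Levels were taken as the mean RPKM (reads scaled to gene length and library size) over the cells of a capture. Cells of 11 captures had a median of 1.90 to 3.21 M reads (M, mega), as read from the steps between low values, and cells had a median of 3639 to 7975 detected genes. The second E12.5 capture stood apart, with an estimated 0.175 M reads per cell and with a Y-linked transcript in 40 of 53 cells, although labelled XX. Nr5a1 was measured in every capture, at 13.9 to 72.8 RPKM. Germ cell markers summed to at most 19.8 RPKM over 8 genes in any capture. Of 7 granulosa markers, 2 to 4 reached 1 RPKM in the fetal captures and 6 to 7 at P6, and Amh was at 0 at E12.5, E13.5 and E16.5 and at 8.46 and 5.66 RPKM at P6. Because the measure is a mean over sorted cells, more cells of a type and more RNA per cell cannot be told apart in it, so the share of cells at 1 RPKM or more (here called detecting cells) and the level within them are given beside it.

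Inha (ENSMUSG00000032968.4, chromosome 1, 75507077 to 75510366, plus strand, GRCm38) was the only gene of the 8 called between stages, with a postnatal rise. Its capture means were 4.25 RPKM at E10.5, then 74.1 and 36.1 at E11.5, and 33.03, 63.6 and 79.8 at E12.5. They were 38.4 and 17.5 at E13.5, 24.6 and 19.3 at E16.5, and 1787 and 774 at P6. Both P6 captures lay above all 10 fetal captures, as they did for 3.74% of 19709 genes (17.3% had both P6 captures above both E16.5 captures), and among the fetal stages after E10.5 the captures of neighbouring stages overlapped. From E16.5 to P6 the log2 level rose by 5.69 ± 0.61 (SE; limma, adjusted p = 0.0228), a 51.6-fold difference on the log2(RPKM + 1) scale. In that comparison 0.289% of 19709 genes were called in either direction, 0.203% were called higher and 0.0863% lower, and Inha was the only called gene of the 8. It was also called over all stages (F test of limma, adjusted p = 0.0351), where 1.38% of genes were called. Marker sums moved with it: 7 granulosa markers summed to 486 and 531 RPKM at E16.5 and to 859 to 1325 at P6, 8 stroma markers to 616 and 990 and then 1237 to 2259, and 5 steroidogenic markers to 64.4 and 101 and then 307 to 1063. Other sums were lower at P6, with 8 pregranulosa markers at 171 to 180 RPKM and then 92.5 to 100.1, 8 surface epithelium markers at 198 to 409 and then 80.4 to 84.5, and 8 germ cell markers at 8.94 to 19.8 and then 3.597 to 4.92. The steroidogenic sum lay mostly in Hsd3b1, at 95.4 and 59.96 RPKM at E16.5 and at 1060 and 304 RPKM at P6. Star was lower at P6, at 2.81 and 0 RPKM against 5.52 and 4.45 RPKM, and Insl3 was at 0. Cyp17a1 was at 0.00911 and 0 RPKM at E16.5 and at 0 and 2.97 RPKM at P6. Cyp11a1, the defining steroidogenic gene, was under 1 RPKM at both stages, and the part of these cell types in the rise was not tested.

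The call rested on the spread pooled over stages. The size of the rise stayed at 5.69 without an E11.5 or E13.5 capture. Its adjusted p by limma was then 0.059 when the first and 0.0604 when the second capture of E11.5 was left out, and likewise 0.0634 and 0.0606 for E13.5. With only the captures whose titles carry the run code of E16.5 and P6, which leaves the third E12.5 capture beside them, it was 0.415, and with the mean of log2 values per cell the rise was 3.82 with an adjusted p of 0.0848. The call over all stages was lost with that mean (adjusted p = 0.118), and without the first or second E16.5 capture (adjusted p = 0.0792 and 0.0842) or the first P6 capture (0.0766).

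**Figure D1:**
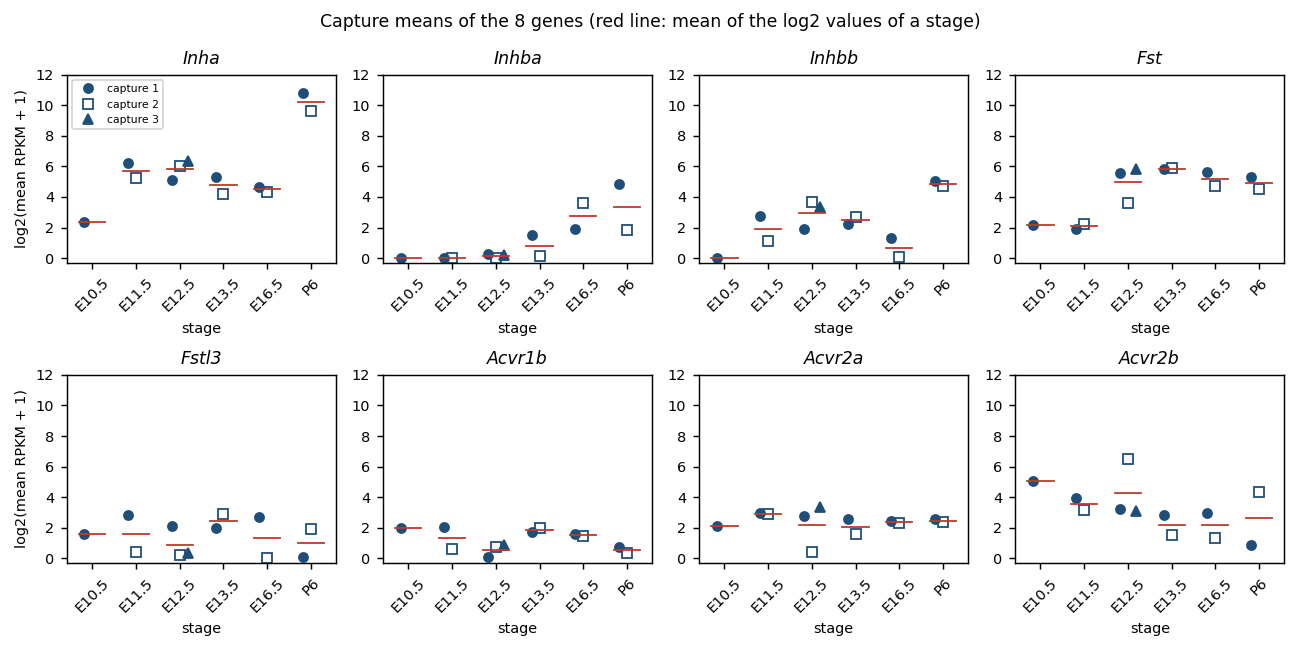
Mean RPKM of each of the 8 genes per capture, as log2(mean RPKM + 1) on the vertical axis, by stage on the horizontal axis; each symbol is 1 capture and the red line the mean of the log2 values of a stage. Inha stands at 774 and 1787 RPKM in the P6 captures and at 79.8 RPKM or less in every fetal capture, Inhbb has its highest captures at P6, and Fst is low at E10.5 and E11.5 and higher from E12.5 on, where the second E12.5 capture is the lowest at 10.9 RPKM.

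The postnatal rise of Inha lay in the level per detecting cell more than in the share of detecting cells. That share was 45.3% in both E13.5 captures (24 of 53 cells each), 21.8% and 25% at E16.5, and 65.5% (36 of 55 cells, exact 95% interval 51.4 to 77.8%) and 42.4% (28 of 66, 30.3 to 55.2%) at P6. The mean level within detecting cells was 84.8 and 38.5 RPKM at E13.5, 112 and 77.1 at E16.5, and 2730 and 1825 at P6. At P6 the highest cell of each capture reached 13204 and 6924 RPKM and held 13.4% and 13.55% of the capture's sum, so the P6 means did not rest on 1 cell. The intervals cover only the counting error over the cells of 1 capture, and not the differences between captures. The levels rest on reads without molecular identifiers, which are not independent molecules.

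Inhbb (ENSMUSG00000037035.5, chromosome 1, 119415465 to 119422248, minus strand), which encodes the beta B subunit, had a pattern like that of Inha at a lower level. Its capture means were 0.00576 RPKM at E10.5, then 5.84 and 1.13 at E11.5, 2.73, 11.4 and 8.95 at E12.5, 3.79 and 5.43 at E13.5, 1.52 and 0.0336 at E16.5, and 31.5 and 24.96 at P6. Both P6 captures lay above every fetal capture, as they did for 3.74% of genes. The difference between E16.5 and P6 was 4.17 ± 0.83 on the log2 scale and was not called (limma, adjusted p = 0.134, unadjusted p = 0.00148). The share of detecting cells was 7.27% and 0% at E16.5 and 25.5% and 19.7% at P6. For the 0 of 40 cells at E16.5 the exact 95% upper limit was 8.81%. Within detecting cells the level was 28.4 and 22.01 RPKM at E13.5 and 123 and 127 RPKM at P6.

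Inhba (ENSMUSG00000041324.14, chromosome 13, 16011851 to 16031621, plus strand), which encodes the beta A subunit, was measured in few cells at any stage. It reached 1 RPKM in none of the cells of E10.5 or E11.5, and in 2 of 163 cells at E12.5, 4 of 106 at E13.5, 2 of 95 at E16.5 and 11 of 121 at P6. Its capture means of 2.72 and 10.98 RPKM at E16.5 came almost wholly from 1 cell each, which held 99.4% and 99.9% of the capture's sum. At P6 the means were 27.7 and 2.59 RPKM, with 61.9% and 86.2% of the sum in the highest cell, and without that cell they were 10.8 and 0.363 RPKM. The difference between E16.5 and P6 was 0.61 ± 1.05 on the log2 scale (limma, adjusted p = 0.973).

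The cells that held Inhba in the first P6 capture differed in their other genes from most of those in the fetal captures and from those of the second P6 capture. None of the 8 fetal cells with Inhba at 1 RPKM or more had Inha at that level, and Inha was at 0 in each of them. Of these 8 cells, 7 had Nr2f2, a transcription factor gene of gonadal stroma, at 100 RPKM or more, and 7 had Tcf21, a stromal transcription factor gene, at 10 RPKM or more. In the first P6 capture, 9 of 9 Inhba cells also had Inha, at a median of 3338 RPKM, 7 also had Inhbb, 7 had Fst, and 5 had the estrogen synthesis gene Hsd17b1, while 1 had Nr2f2 at 100 RPKM or more. In the second P6 capture, 0 of 2 Inhba cells had Inha at 1 RPKM and both had Nr2f2 above 100 RPKM and Dcn, a stromal proteoglycan gene, above 10 RPKM. The joint presence of Inhba and Inha therefore rests on the first P6 capture. These cells were picked out after their values were seen, and no test was made over cells.

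Inha and a beta subunit were found in the same cells at every stage but E10.5, and Inha with Inhba at P6 alone. Inha and Inhbb were both at 1 RPKM or more in 21.1 ± 6.2% of P6 cells (SD, n = 2 captures; 25 of 121 cells), Inha and Inhba in 8.18 ± 11.6% (9 cells), and all 3 subunits in 6.36 ± 9.0% (7 cells, all in the first capture). Inha and Inhbb together were found in 14.2 ± 6.7% of cells at E11.5, 11.3 ± 8.0% at E13.5 and 2 of 95 cells at E16.5, and the first E11.5 capture (18.9%) lay above the second P6 capture (16.7%). At 1 RPKM, Inha without a beta subunit was the most frequent of the states with a subunit, at 31.1 ± 7.5%. That order depends on the threshold, since Inha with Inhbb was in 32.4% of P6 cells when any value above 0 counted. A beta subunit without Inha, at 1 RPKM, was found in 0 of 55 and 3 of 66 cells. No subunit was found in 43.8 ± 13.1% of P6 cells.

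From E12.5 to E16.5 many of the cells with Inhbb had Inha under 1 RPKM. That does not show absence, since a transcript can be missed in a single cell. Inha levels within detecting cells were also lower before P6, and the part of missed transcripts was not tested. Of the Inhbb cells, 15 of 16 had Inha at E11.5, 17 of 30 at E12.5, 12 of 20 at E13.5 and 2 of 4 at E16.5, against 25 of 27 at P6. The shallow second E12.5 capture, with Y-linked transcripts in most cells, gave 10 of those 30 cells and 6 of the 17. A beta subunit without Inha was found in 13.2% and 7.55% of cells in the E13.5 captures. Within P6 captures, Spearman's rho between Inha and Inhbb over cells was 0.72 (55 cells) and 0.58 (66 cells), 0.11 and 0.24 over 53 cells each at E13.5, and 0.21 and 0.18 at E16.5. It was 0.55 and 0.51 at E11.5, near the second P6 capture, and 0.39, 0.42 and 0.28 at E12.5. These correlations describe cells that share a capture and vary in depth. Ratios between genes, here and for Fst below, use values scaled to gene length, and whether amplification differed between the genes was not tested. Inha stood 30.2-fold and 28.1-fold above the summed beta subunits at P6, 6.78-fold and 3.17-fold at E13.5, and 5.79-fold and 1.76-fold at E16.5. Earlier it stood 12.7-fold and 31.9-fold above them at E11.5 and 11.3-fold, 5.55-fold and 8.78-fold at E12.5, so the second E11.5 capture lay above both P6 captures. At E10.5 the beta subunits were near 0.

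**Figure D2:**
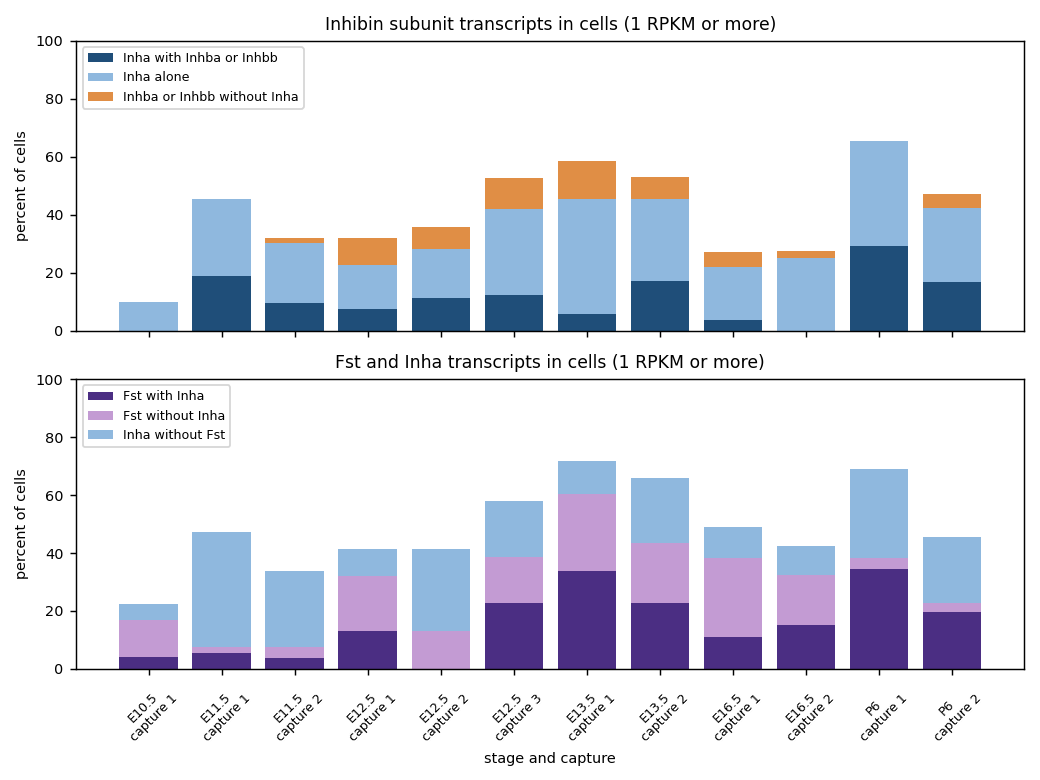
Percent of the cells of each capture (vertical axis) with combinations of subunit transcripts (upper plot) and of Fst and Inha (lower plot) at 1 RPKM or more; each stacked bar is 1 capture, in order of stage. Inha with a beta subunit reaches 29.1% and 16.7% in the P6 captures, and Fst without Inha falls to 3.64% and 3.03% there, from 17.5% to 27.3% in the E13.5 and E16.5 captures.

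Fst (ENSMUSG00000021765.9, chromosome 13, 114452290 to 114458951, minus strand) was low in the early gonad and higher from E12.5 on. Its capture means were 3.57 RPKM at E10.5, then 2.82 and 3.64 at E11.5, 46.6, 10.9 and 55 at E12.5, 54.7 and 59.4 at E13.5, 47.5 and 24.8 at E16.5, and 39.1 and 21.6 at P6. The second, shallow E12.5 capture took 93.7% of its Fst from 1 cell and stood at 0.704 RPKM without it. The E13.5 captures lay above all E10.5 and E11.5 captures, where 21.2% of genes had both E13.5 captures above both E11.5 captures, and the E16.5 and P6 captures overlapped. The log2 difference between E11.5 and E13.5 was 3.78 ± 0.68 and was not called (limma, adjusted p = 0.2504, unadjusted p = 0.000762). In that comparison limma called 0.0% of genes, against 5.29% at an unadjusted p below 0.05.

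Fst was still measured at P6 at a mean of 30.3 ± 12.4 RPKM, against 36.1 ± 16.03 at E16.5 (SD, n = 2 captures each). From E16.5 to P6 its log2 level differed by -0.23 ± 0.68 (95% interval -1.82 to 1.36; limma, adjusted p = 1), an interval that includes a rise and a fall of more than 2-fold. The share of detecting cells was 60.4% and 43.4% at E13.5, 38.2% and 32.5% at E16.5, and 38.2% and 22.7% at P6. Within detecting cells the level was 90.5 and 137 RPKM at E13.5, 124 and 76.2 at E16.5, and 102 and 94.8 at P6. Over all stages Fst was not called (limma F test, adjusted p = 0.165), but it was called without the first or the second E12.5 capture (0.0305 and 0.0309).

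More of the cells with Fst also held Inha at P6 than at E13.5 or E16.5. At P6, 19 of 21 and 13 of 15 Fst cells also had Inha at 1 RPKM or more, in captures where Inha was found in 17 of 34 and 15 of 51 of the cells without Fst. At E16.5 these numbers were 6 of 21 and 6 of 13 of the Fst cells, and at E13.5 18 of 32 and 12 of 23. Of the cells without Fst, 10 of 61 had Inha over the E16.5 captures and 18 of 51 over those of E13.5. Fst cells thus held Inha more often than other cells at these stages too. Inha itself was found in 23.4 ± 2.2% of cells at E16.5 and 53.9 ± 16.3% at P6. Fst without Inha made up 3.33 ± 0.43% of cells at P6 (SD, n = 2 captures), 22.4 ± 6.9% at E16.5 and 23.6 ± 4.0% at E13.5. These shares are a description, and no test was run on them.

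On the mean over all cells, Fst stood above the summed beta subunits at E13.5 and E16.5 and below them at P6. It stood 9.65-fold and 10.8-fold above the summed beta subunits at E13.5 and 11.2-fold and 2.25-fold above them at E16.5. At P6 the ratio was 0.661 and 0.783, so the summed beta subunits then stood above Fst on the mean over all cells. Without the cell with the highest summed beta subunits in each capture, an alternative chosen after the data were seen, the P6 ratio was 0.914 and 1.01, so in the second capture the order rested on 1 cell. Inha stood below Fst at E13.5 and E16.5, with ratios of 0.295 to 0.780 over the 4 captures, and 45.7-fold and 35.9-fold above Fst at P6. It also stood above Fst earlier, 26.3-fold and 9.92-fold at E11.5 and 5.82-fold and 1.45-fold in E12.5 captures 2 and 3. Fst also stood below the summed beta subunits in the first E11.5 capture (0.483) and the shallow E12.5 capture (0.954). The E16.5 beta subunit sums include the Inhba of 1 cell each, and without that cell the ratio of Fst to them was 30.9 and 539.

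**Figure D3:**
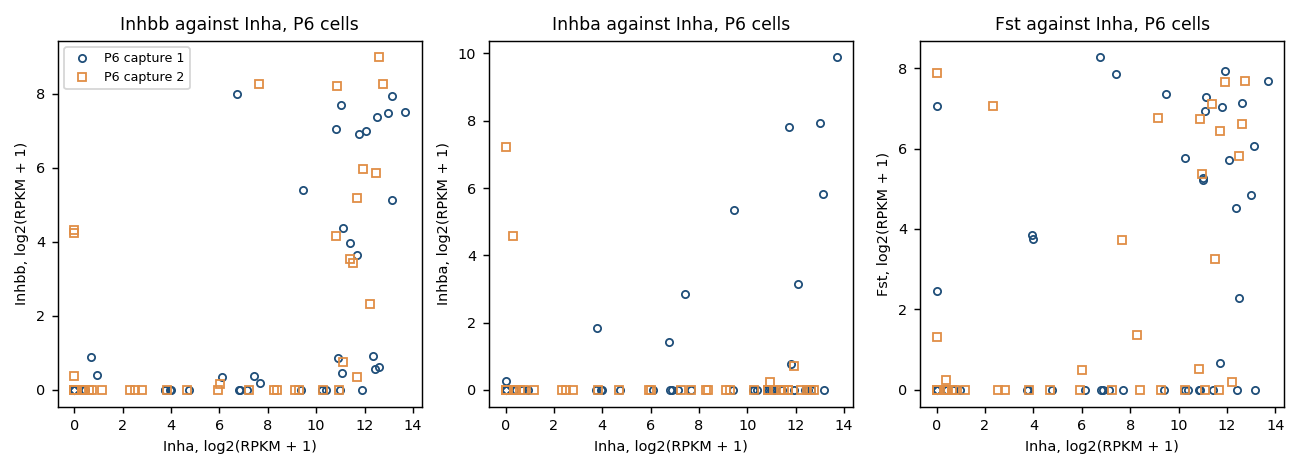
Inhbb, Inhba and Fst (vertical axes) against Inha (horizontal axis) in the 121 P6 cells, all as log2(RPKM + 1); circles are cells of the first capture and squares those of the second. Most cells with Inhbb or Fst lie at high Inha, and the 2 Inhba cells of the second capture lie at or near 0 Inha.

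Fstl3 (ENSMUSG00000020325.10, chromosome 10, 79777272 to 79782630, plus strand) was low and scattered. Its capture means ranged from 0.0253 to 6.44 RPKM, and captures of the same stage lay far apart, as at E11.5 with 6.06 and 0.354 RPKM and at E16.5 with 5.46 and 0.0253 RPKM. It was detected in 1.82% to 16.98% of cells, and no comparison called it (limma, adjusted p = 0.946 over all stages).

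Among the receptors, Acvr2b (ENSMUSG00000061393.14, chromosome 9, 119402118 to 119434995, plus strand) was found in a smaller mean share of cells at each later stage. It was detected in 42 of 71 cells at E10.5 (59.2%, exact 95% interval 46.8 to 70.7%), in 30.2% and 26.4% at E11.5, and in 15.1%, 30.2% and 21.1% at E12.5. At E13.5 the shares were 16.98% and 11.3%, at E16.5 10.9% and 5%, and at P6 1.82% and 3.03%. The median number of detected genes per cell also fell, from 7975 at E10.5 to 4997 and 3639 at P6, and its part in these shares was not tested. The means did not follow the shares: they were 32.2 RPKM at E10.5, then 14.2 and 7.84 at E11.5, 8.46, 89.1 and 7.67 at E12.5, 6.24 and 1.90 at E13.5, 6.79 and 1.58 at E16.5, and 0.882 and 18.98 at P6. In the second E12.5 and the second P6 capture, 51.4% and 63.4% of the sum lay in 1 cell. Acvr2b was not called in any comparison (limma, adjusted p = 0.843 over all stages).

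Acvr2a (ENSMUSG00000052155.5, chromosome 2, 48814109 to 48903269, plus strand) was the steadier of the type 2 receptors. Its capture means lay between 1.98 and 9.31 RPKM in 11 captures, at 4.53 ± 0.57 RPKM at P6 against 4.24 ± 0.23 at E16.5 (SD, n = 2 captures each), and at 0.329 RPKM in the shallow E12.5 capture. The difference between E16.5 and P6 was 0.07 ± 0.78 on the log2 scale, with a 95% interval of -1.77 to 1.91. Cells with Acvr2a made up 40.8% at E10.5, then 39.6% and 35.8% at E11.5, and 27.3% and 15.2% at P6. Where both type 2 receptors are considered, 76.1% of E10.5 cells had at least 1 of them and 23.9% had both, against 22.7 ± 6.4% and 0.909 ± 1.3% at P6.

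Acvr1b (ENSMUSG00000000532.11, chromosome 15, 101174067 to 101213684, plus strand), which encodes the type 1 receptor, was the lowest of the receptors in most captures. Its means were 0.0453 to 3.23 RPKM and it was detected in 1.52% to 15.1% of cells. At E16.5 it stood at 1.89 ± 0.12 RPKM and at P6 at 0.485 ± 0.25 (SD, n = 2 captures each), a log2 difference of -0.97 ± 0.56 that was not called (limma, adjusted p = 0.653). At P6, 1 of 121 cells held Acvr1b together with a type 2 receptor at 1 RPKM or more, and 10 of 121 held a beta subunit together with a type 2 receptor.

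To ask in which cells the genes were measured, cells with Foxl2 at 1 RPKM or more were compared with the other cells of the same capture. Foxl2 encodes a transcription factor of the supporting lineage, which gives rise to granulosa cells. The split served in place of the comparison planned between Foxl2-only and Nr2f2-only cells, since Nr2f2 reached 1 RPKM in 609 of 662 cells, and it was chosen after the data were seen. In 8 captures both pools held at least 5 cells. Foxl2 cells made up 12.3% to 35.8% of the 6 fetal captures used and 61.8% and 62.1% of the P6 captures. At P6, 31 of 34 and 32 of 41 Foxl2 cells also had Nr2f2 at 1 RPKM or more. The split is therefore by 1 gene and is not a call of lineage.

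Fst was higher in the Foxl2 cells of 6 of 6 fetal captures, which also had the higher median number of detected genes in each, from 7151 against 7015 in the second E13.5 capture to 5359 against 4099 in the second E16.5 capture. The part of that in the difference was not tested. Its mean was 151.5 RPKM in Foxl2 cells and 28 in other cells in the first E12.5 capture, and 101 and 48.6 in the third. At E13.5 the values were 104 and 26.95 in the first capture and 162 and 22.6 in the second, and at E16.5 they were 79.9 and 38.4, and 26.3 and 24.2. The difference was 1.55 ± 0.36 on the log2 scale and was not called (limma, adjusted p = 0.170, unadjusted p = 0.00117). In this comparison limma called 0.0119% of 16787 genes, while 1.29% of genes were higher in the Foxl2 cells of every fetal capture. Foxl2 itself was among the 2 called, as the split by Foxl2 fixed in advance. At P6 Fst stood at 38.1 RPKM in Foxl2 cells and 40.8 in other cells in the first capture, and at 26.7 and 13.1 in the second.

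Inha was higher in the Foxl2 cells of the 4 captures of E13.5 and E16.5 and lower in those of both E12.5 captures used. Of all genes, 19.2% were higher in the Foxl2 cells of at least 4 of 6 fetal captures. At E16.5 it stood at 85.4 RPKM against 7.60 in the first capture and at 29.8 against 15.4 in the second. At P6 it stood at 2081 against 1311 RPKM and at 1064 against 299 RPKM, so cells without Foxl2 at 1 RPKM also held high Inha. Neither the fetal difference (1.14 ± 0.42, adjusted p = 0.325) nor the P6 difference (1.25 ± 0.74, adjusted p = 0.838) was called by limma. At P6 limma called 0.0% of 16787 genes, against 6.24% at an unadjusted p below 0.05.

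Inhba lay in the other cells in 5 of 6 fetal captures, with 0 RPKM in the Foxl2 cells of each of the 5. Each of these 5 captures held 1 cell with Inhba at 1 RPKM or more, and 22.6% of all genes were higher in the other cells of at least 5 of 6 captures. At P6 Inhba was higher in the Foxl2 cells, at 37.0 against 12.7 RPKM and 4.17 against 0 RPKM. The 4.17 RPKM came from the 2 cells with high Nr2f2 and Dcn described above, which had Foxl2 at 32.8 and 146 RPKM. Nr2f2 differed between Foxl2 cells and other cells by -1.42 ± 0.31 on the log2 scale in the fetal captures and by 0.05 ± 0.53 at P6, neither called (limma, adjusted p = 0.138 and 1), and their difference was not called (adjusted p = 0.608). The change of the Inhba difference from the fetal captures to P6 was 2.97 ± 1.22 on the log2 scale and was not called (limma, adjusted p = 0.607, unadjusted p = 0.0325). For this change limma called 0.0% of 16787 genes, with 7.99% at an unadjusted p below 0.05. Acvr2b was higher in the other cells in 5 of 6 fetal captures (adjusted p = 0.492 by limma), as were 22.6% of genes in at least 5 of 6.

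**Figure D4:**
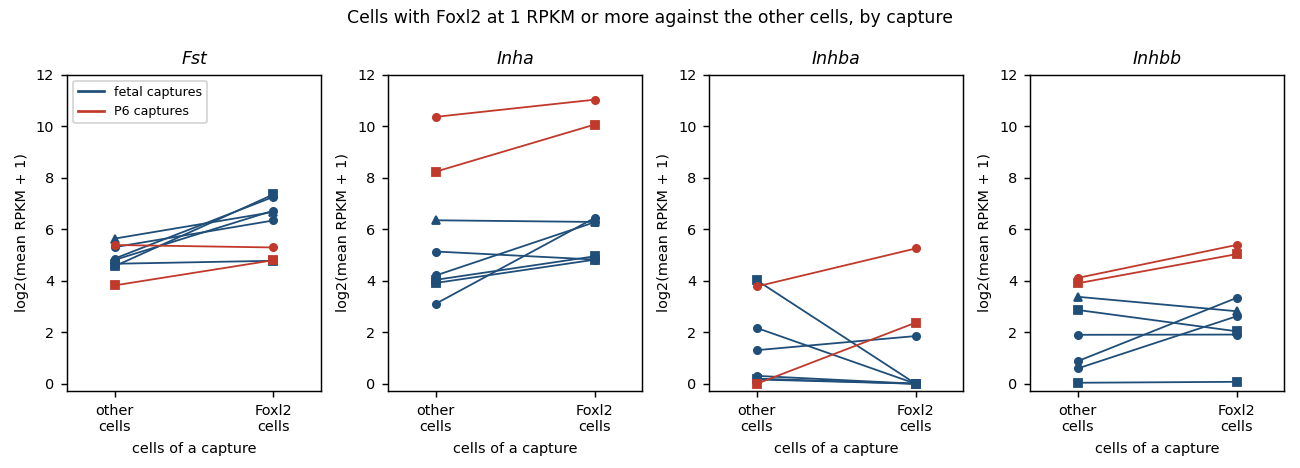
Mean RPKM of Fst, Inha, Inhba and Inhbb, as log2(mean RPKM + 1) on the vertical axis, in the other cells and in the cells with Foxl2 at 1 RPKM or more (horizontal axis); each line joins both pools of 1 capture, blue for the 6 fetal and red for the P6 captures, with circles, squares and triangles for captures 1, 2 and 3 of a stage. All 6 fetal lines rise for Fst, and 4 of 6 rise for Inha.

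At P6 the subunits were further set against Amh, which marks granulosa cells of growing follicles, and against Dcn, a stromal gene. All 22 cells with Amh at 1 RPKM or more had Inha at that level, 13 of 13 and 9 of 9 in the captures. Their mean Inha was 3749 and 3866 RPKM, against 1179 and 286 RPKM in the cells without Amh. Inhbb stood at 57.7 and 85.8 RPKM in Amh cells and at 23.3 and 15.4 RPKM in the rest. Inhba had no common direction, at 35.98 RPKM in Amh cells against 25.2 in the first capture and 0.0698 against 2.99 in the second. It was detected in 2 of 13 Amh cells against 7 of 42 others, and in 0 of 9 against 2 of 57. Amh cells also had more detected genes, a median of 5565 against 4902 in the first capture and 4721 against 3456 in the second, whose part in these differences was not tested.

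Cells with Dcn at 10 RPKM or more, a split chosen after the data were seen, held less of the alpha and beta B subunits. Mean Inha was 306 and 33.6 RPKM in them and 3214 and 1779 RPKM in the cells under 10 RPKM. Inhbb was 5.28 and 0.974 RPKM against 56.7 and 57.5 RPKM, and Fst was 16.4 and 9.70 RPKM against 61.03 and 37.7 RPKM. Acvr2a did not follow the subunits in the captures, at 8.30 against 1.68 RPKM in the first and 1.40 against 7.83 RPKM in the second. Inhba went opposite ways in the captures. It stood at 0.623 RPKM in Dcn cells against 53.9 RPKM in the rest in the first, and at 4.48 against 0.0285 RPKM in the second. The median number of detected genes was 4578 in Dcn cells against 5084 in the rest in the first capture, and 3435 against 4107.5 in the second, and its part was not tested.

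Of 60 other genes of the pathway and of granulosa regulation, 49 passed the filter on low values. From E16.5 to P6, limma called 2 of the 49 higher and 0 lower, both among the 9 granulosa regulators: Nr5a2, which encodes a nuclear receptor of granulosa cells, rose by 3.59 ± 0.28 on the log2 scale (adjusted p = 0.0110), and Esr2, which encodes estrogen receptor beta, rose by 3.30 ± 0.37 (adjusted p = 0.0275). Nr5a2 stood at 0.00502 and 0 RPKM at E16.5 and at 12.8 and 9.47 RPKM at P6, and Esr2 at 1.26 and 1.57 RPKM and then 20.1 and 25.9 RPKM. Of the 40 tested ligands, receptors, co-receptors, antagonists, convertases and SMAD pathway genes, 0 were called in this comparison (5 at an unadjusted p below 0.05 by limma). Of all 19709 genes, 8.95% had an unadjusted p below 0.05 in it. The median log2 difference of the 49 genes was 0.00, as was that of all genes. It was 0.13 between E11.5 and E13.5 (0.01 over all genes) and -0.58 between E13.5 and E16.5 (-0.15 over all genes). Between E11.5 and E13.5 and between E13.5 and E16.5, 0 of the 49 were called by limma, with 4 and 3 at an unadjusted p below 0.05. The shares of all genes under that unadjusted p were 5.29% and 7.27%. Between E13.5 and E16.5, where 0.528% of all genes were called, 0.0203% higher and 0.507% lower, the stages carry different run codes, and the comparison rests on E12.5. In the fetal Foxl2 cells against other cells, 45 of these genes were tested, and their median was -0.08 against -0.24 over all genes. The 1 called was Foxl2, which defined the split, so its call was fixed in advance.

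The genes with capture patterns most like those of Fst and Inha were taken by Pearson's r of log2(mean RPKM + 1) over the 12 captures, among 8585 genes with a full symbol that reached 10 RPKM in any capture. For Fst they included Mbnl3 (r = 0.89), Pam (0.89), which encodes a peptide-amidating enzyme, the transcription factor gene Runx1 (0.89) and Cntn4 (0.89). For Inha they were Chp2 (r = 0.92), Nipal1 (0.90), Clec12b (0.89), Cyp19a1 (0.88), which encodes aromatase, the enzyme that makes estrogens, and Mfap5 (0.88), a gene of the stroma marker list. Among the 8 genes, Inhbb was the closest to Inha (r = 0.88), and r between Fst and Inha was 0.19. Cyp19a1 was at 0 RPKM in 9 fetal captures and at 0.00564 in the second E16.5 capture, and stood at 24.7 and 6.59 RPKM at P6. The captures share stage and run code, so these values only describe likeness of pattern.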

How the data were processed

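Single NR5A1-eGFP positive cells were sorted and captured on microfluidic chips, and polyadenylated RNA was amplified and sequenced, per the labels' protocols. The authors deposited 1 table of 663 libraries with no unit named. Judged from the deposited file, the authors had scaled read counts to gene length and library size, so values were taken as RPKM: totals per cell varied from 309700 to 773400 and a median of 72.7% of low values, times gene length, fell within 0.02 of a whole number of reads, for genes of up to 6.5 reads. The build was GRCm38.p3 (mm10), per the submitters' processing notes. Aligner, counter, strand handling, annotation and cell filters: not given in the sources used here. Date-like names (27) and the reporter row were left out.

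Means over cells were taken per capture, since cells are not replicates. limma 3.58.1 in R 4.3.3 fitted log2(mean RPKM + 1) with stage and run code (a code in the titles, shared by E12.5 alone) over 12 captures, for 19709 genes whose mean reached 1 RPKM in any capture, with 5 residual degrees of freedom and Benjamini-Hochberg adjustment over all genes at 0.05. Fold changes on this scale understate those of low genes. The E10.5 capture took its spread from the others. Whether captures of a stage came from separate litters is not given, so p-values measure only how far captures differ, which may be technical. The comparison planned between Foxl2-only and Nr2f2-only cells left 2 captures and 0 residual degrees of freedom, and was replaced by Foxl2 cells against other cells with capture as a term (16787 genes with at least 1 RPKM in at least 2 pools, 6 residual degrees of freedom). The fits were tested on simulated data. Doublets were neither called nor removed.

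Named genes were the 8 members, the 5 genes most like Fst and Inha (1 of them is not reported here), pathway genes called in a comparison, and Nr5a1, Foxl2, Nr2f2 and Amh. Tcf21, Hsd17b1, Dcn, Hsd3b1, Star, Insl3, Cyp17a1, Kitl, Sycp3 and Zp3 were chosen after their values were seen. The members and lists were chosen with earlier results of these data known. Alternatives were the pseudocount, the filter, the scaling, the run code, the cells used and each capture left out.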

Additional observations from a re-analysis of the deposited data

How the results depend on the processing

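Of the 8 genes, the calls that changed were those of Inha and Fst given in the report, and no called value changed direction. The counts of called genes depended strongly on the settings. From E11.5 to E13.5, E13.5 to E16.5, E16.5 to P6 and over all stages, limma called 0, 104, 57 and 271 genes. With no filter on low values the counts were 48, 568, 102 and 1509, and with the mean of log2 values per cell 6, 0, 128 and 489. With at least 10 RPKM in at least 1 capture, E13.5 to E16.5 gave 0, E16.5 to P6 gave 22 and all stages gave 18, and with at least 1 RPKM in at least 2 captures the first and the last of these gave 0 and 15. E13.5 to E16.5 gave 45 with a pseudocount of 0.1 and 0 with no run code term, and E16.5 to P6 gave 0 with only the captures of its run code. Leaving out each capture gave 0 to 233, 108 to 839, 26 to 381 and 155 to 1500 genes. Without the third E12.5 capture the run code could not be fitted, so E13.5 to E16.5 and all stages have no value there. For Foxl2 cells against other cells, limma called 2 genes in the fetal captures, 0 at P6 and 0 for the difference between them. These became 1, 31 and 21 with no filter, and 10, 12 and 1 with stage in place of capture. With Foxl2 at 5 RPKM the first and the second were 4 and 1. Leaving out each capture gave 1 to 7, 0 to 14 and 0 to 0. The planned Foxl2-only against Nr2f2-only comparison could be fitted only at 5 RPKM, over 3 captures with 1 residual degree of freedom, where limma called 0 of 12884 genes in the fetal captures, at P6 and for the difference (524, 906 and 404 at an unadjusted p below 0.05). The share of P6 cells with Inha and Inhbb was 32.4% when any value above 0 counted. Otherwise the P6 shares with Inha or a beta subunit moved, under other thresholds, by less than the SD between the captures. That SD rests on 2 captures. It exceeded the mean for Inha with Inhba, for all 3 subunits and for a beta subunit without Inha. For these shares no fall could have exceeded it, so it shows nothing of their stability. Leaving out a P6 capture returns the value of the other one, 16.7% and 25.5% for Inha with Inhbb, and shows nothing of stability. No paired analysis was possible because the captures of different stages share no replicate numbers. The shallow second E12.5 capture limits what can be said of genes detected by few reads there.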
